A study of Mus musculus with 18 samples.

Results

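The hair shaft genes described here are the hair keratins and the keratin-associated proteins (KAPs), taken from 18 arrays of mouse epidermal sheets. Members were every array row with a single gene symbol that starts with Krtap, or that is Krt31 to Krt36 (letter suffixes included), Krt39, Krt40 or Krt81 to Krt86. They come to 65 genes of the 22180 genes that a row of its own names: 14 hair keratins, of which 9 are type I and 5 type II, and 51 KAP genes of 24 families. Only Krtap5-1 had more than 1 such row, and the one that varied most between arrays was used. Krt85 is named by no row. Krtap15, Krtap2-4, Krtap3-2 and Krtap3-3 are named only in rows shared with other genes and were not analysed here.

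The mice were females on a B6;129 background, either AhR-/- (KO), of the line B6.129-AhRtm1Bra/J that lacks the aryl hydrocarbon receptor in every cell, or AhR+/+ littermates (WT). The shaved back skin of both genotypes was taken unstressed (0 h), or 6 or 24 h after tape stripping, in which adhesive film applied 5 times pulls off cornified layers. Each of the 6 groups held 3 arrays, and total RNA came from epidermal sheets, with a content of hair follicle pieces not given in the sources used here. The values are log2 with each row's median over the 18 arrays already set to 0, so a value is a difference from that gene's middle array and carries no level, and whether a gene was detected, or whether skin markers were present, could not be read from them.

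Hair shaft cells are filled with hair keratins, in which a type I chain pairs with a type II chain to form intermediate filaments, and with KAPs, small proteins that crosslink and pack these filaments. KAPs are sorted by composition into high sulfur, ultra-high sulfur and high glycine-tyrosine proteins. Krt35 and its type II partner Krt85 appear early, in the matrix and the lower shaft, while Krt31, Krt33a, Krt33b, Krt34, Krt81, Krt83 and Krt86 belong to the cortex and KAPs follow higher up. Follicles make a shaft only in anagen, the growth phase of the hair cycle. The inner root sheath, with its keratins Krt25 to Krt28 and Krt71 to Krt74 and trichohyalin (Tchh), surrounds the growing shaft and is made in the same phase. In bulk tissue, fewer cells of a type and less RNA per cell cannot be told apart.

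Promoters of 5 members are shown because 3 of these genes stood high together in 1 array, described next, while the other 2, which neighbour them in the keratin and KAP clusters, did not. The RefSeq sequences (GRCm38.p6, minus strand of the chromosome in each case) run 5′ to 3′ and cover the 100 bases before the start of the gene, with the letters TATAAA in capitals. Krtap8-1, Krtap11-1 and Krt31 were high in that array, and Krtap6-2 and Krt34 were not. They lie at chr16:89487953-89488052, chr16:89571184-89571283, chr11:100050552-100050651, chr16:89420112-89420211 and chr11:100041555-100041654, in the order printed.
Krtap8-1: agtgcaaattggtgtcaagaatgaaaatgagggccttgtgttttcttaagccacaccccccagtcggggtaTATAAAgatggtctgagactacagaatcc
Krtap11-1: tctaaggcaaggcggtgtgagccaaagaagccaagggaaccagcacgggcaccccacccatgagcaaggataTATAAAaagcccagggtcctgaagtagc
Krt31: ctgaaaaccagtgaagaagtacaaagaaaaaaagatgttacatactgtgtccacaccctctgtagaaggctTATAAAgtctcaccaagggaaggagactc
Krtap6-2: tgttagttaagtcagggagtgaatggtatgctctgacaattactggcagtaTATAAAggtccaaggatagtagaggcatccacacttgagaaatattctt
Krt34: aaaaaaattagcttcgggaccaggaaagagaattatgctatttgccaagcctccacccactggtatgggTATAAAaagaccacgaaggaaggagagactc

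All 5 promoters carried TATAAA, the letters of a TATA box. They were picked after the values were seen, and most member promoters carry these letters. The 5 thus cannot show whether the motif goes with a high value in that array. The motif began 29 bases before the start in Krtap8-1 and Krt31, 28 in Krtap11-1, 31 in Krt34 and 49 in Krtap6-2. Of the 65 members, 55 had an entry in the RefSeq promoter table. TATAAA, or TTTATA on the other strand, lay within 40 bases before the start in 32 of these 55 (58.2%), against 3.03% of all 32851 promoters, and within 250 bases in 44 of them (80%), against 12.4%. The letters CTTTGA or TCAAAG, the core of the sequence bound by LEF1 and the TCF factors, lay within 250 bases in 16 of the 55 (29.1%), against 13.8% of all promoters, and within 40 bases in 1 of the 55 (1.82%), against 1.72%. A match is a description of the letters in this window and not a site in use.

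Most members differed little between arrays, and 1 array held most of the largest values. The median SD over the 18 arrays was 0.103 log2 for the members and 0.137 for all named genes, and 12 of 65 members (18.5%) had an SD over 0.2 log2, against 25.1% of all genes. In the WT 24 h replicate 2 array, Krtap8-1, Krt31, Krt33a, Krtap7-1, Krtap11-1, Krt35 and Krtap5-1 each stood above every other array by over 0.2 log2. That made 7 of 65 members (10.8%), against 0.234% of all genes. The limit of 0.2 log2 and the look at this array were chosen after the values were seen, so these counts are given without a test. Krtap5-1 was nearest the limit, with a gap of 0.220 log2. Its row was chosen by the SD over all 18 arrays, this one included, and the values of its other row are not given here. Without that array, the median SD of the members was 0.0993 log2 and 7 of 65 (10.8%) exceeded 0.2, against 25.7% of all genes.

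**Figure D1:**
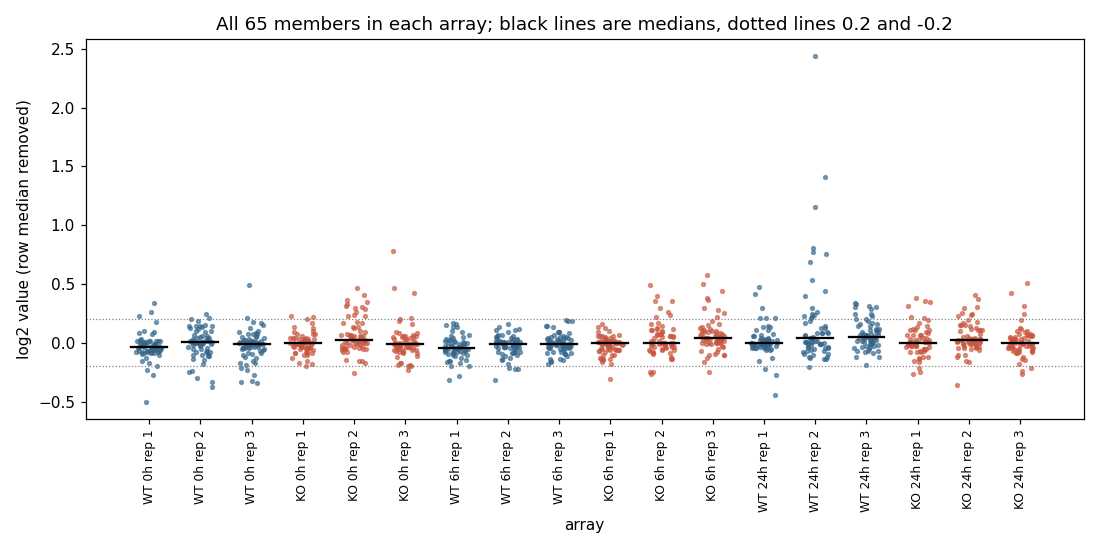
Each point is 1 of the 65 members in 1 array, with the log2 value (row median removed) on the vertical axis and the arrays in order of time, genotype and replicate on the horizontal axis; black lines are medians. The medians of the members lie between -0.0464 and 0.0528 in all 18 arrays, and the WT 24 h replicate 2 array alone has points above 1 log2.

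The WT 24 h replicate 2 array was the highest of the 18 for 16 of 65 members (24.6%), against 3.97% of all genes, and it stood above 0.2 log2 in 17 members (26.2%), against 7.21%. The next array by that limit was KO 0 h replicate 2, an unstressed sheet, with 13 of 65 members above 0.2 log2 (20%), against 11.1% of all genes. The WT 24 h replicate 3 array was the highest for 9 members (13.8%, against 4.23% of genes) with smaller values, its largest member value being 0.34 log2. The members' own median was 0.0376 in WT 24 h replicate 2 and their mean 0.167, so a minority of the members set it apart.

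Among the KAPs, the largest value in the whole set was that of Krtap8-1, a high glycine-tyrosine protein. Before stripping it stood at -0.05, 0.01 and 0.21 in the WT arrays and at 0.0042, 0.34 and -0.03 in the KO arrays. At 6 h Krtap8-1 stood at -0.05, -0.03 and 0.0005 in WT and -0.13, -0.06 and -0.10 in KO. By 24 h Krtap8-1 stood at 0.14, 2.44 and 0.10 in WT and 0.21, -0.0005 and -0.09 in KO. A single array was far above the other 17, with a gap of 2.10 log2 to the next, and the 2 other WT arrays of that time lay among the rest. The order of the 3 values is that of the replicate numbers here and throughout.

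Krtap7-1 and Krtap11-1 are the next protein-coding genes after Krtap8-1 along the chromosome, and both were high in the same array. Krtap7-1, also of the high glycine-tyrosine type, stood at 0.11, 0.76 and 0.04 in WT at 24 h, and its other 15 arrays lay between -0.08 and 0.19. The high sulfur gene Krtap11-1 had -0.01, -0.10 and 0.01 in WT and -0.11, 0.41 and -0.04 in KO at 0 h. Its 6 h values were -0.09, -0.08 and 0.05 in WT and 0.06, -0.06 and -0.16 in KO, and its 24 h values 0.03, 0.77 and 0.07 in WT and 0.35, 0.02 and -0.02 in KO. Its second highest array was KO 0 h replicate 2, and the genotypes overlapped at 0, 6 and 24 h. Krtap6-2, which precedes Krtap8-1, was at -0.07 in WT 24 h replicate 2, and its 18 arrays spanned only -0.09 to 0.08. Probes of near-identical members of the Krtap4, Krtap5, Krtap6, Krtap9 and Krtap19 families, of Krt33a and Krt33b, and of Krt81, Krt83 and Krt86 may share signal, so single genes of these families are uncertain.

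Among the type I keratins of the cortex, Krt31 and Krt33a were highest in the same array. Krt31 stood at -0.08, -0.11 and -0.17 in WT and -0.15, 0.37 and -0.06 in KO at 0 h. Its values at 6 h were -0.20, 0.04 and 0.03 in WT and -0.31, 0.06 and 0.03 in KO, and those at 24 h 0.11, 1.41 and 0.31 in WT and -0.25, -0.03 and 0.12 in KO. All 3 WT arrays at 24 h were above all 3 at 0 h, with replicate 2 above every other array by 1.04 log2. KO 0 h replicate 2 came second for both Krt31 and Krtap8-1.

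In unstressed skin Krt33a had -0.20, -0.24 and -0.27 in WT and -0.01, 0.23 and -0.23 in KO. At 6 h Krt33a had -0.08, 0.0038 and -0.13 in WT and 0.06, 0.40 and 0.38 in KO, and at 24 h it had -0.0038, 1.16 and 0.05 in WT and 0.38, -0.04 and 0.19 in KO. The WT arrays at 0 h were below all WT arrays at 6 h and 24 h, and the KO arrays at 6 h were above the WT ones. Its close relative Krt33b was at 0.04 in WT 24 h replicate 2 and Krt34 at -0.11, so these 2 cortex keratins did not share the high value.

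Krt35, an early keratin of matrix and cortex, had -0.02, -0.18 and 0.50 in WT and -0.05, 0.05 and 0.06 in KO at 0 h. For 6 h the Krt35 values were -0.29, 0.02 and -0.08 in WT and -0.05, 0.05 and 0.03 in KO, and for 24 h 0.06, 0.80 and 0.15 in WT and -0.02, -0.11 and -0.09 in KO. Its second highest array was the unstressed WT 0 h replicate 3, and the 9 KO arrays kept between -0.11 and 0.06.

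**Figure D2:**
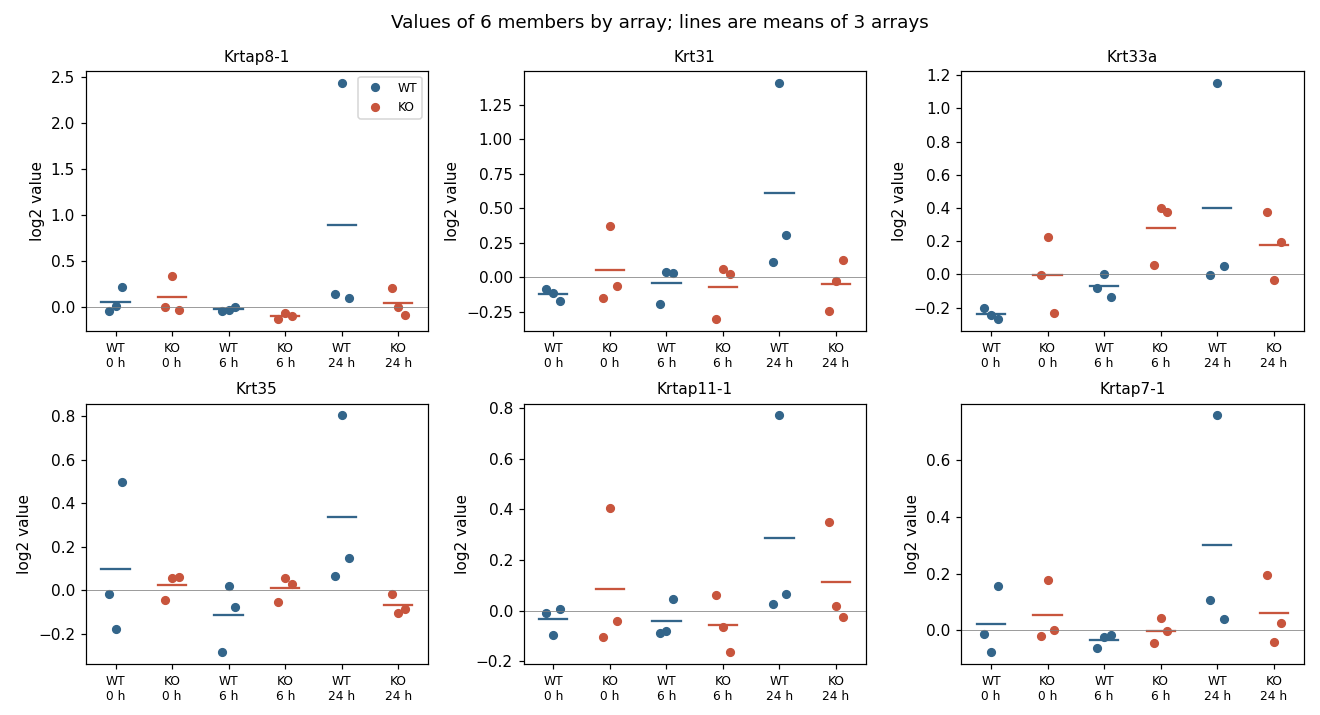
Log2 values (row median removed) of Krtap8-1, Krt31, Krt33a, Krt35, Krtap11-1 and Krtap7-1 in each array, by genotype and time, with lines at the mean of 3 arrays; the vertical scales differ between panels. In each panel the highest point is the same array, WT 24 h replicate 2, which pulls the WT 24 h mean up to 0.89 log2 for Krtap8-1.

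Among the ultra-high sulfur KAPs, Krtap5-1, Krtap17-1 and Krtap4-16 had WT 24 h replicate 2 as their highest array and the others did not. Krtap5-1 had 0.08, -0.15 and 0.13 in WT and -0.04, 0.46 and 0.43 in KO at 0 h. Krtap5-1 at 6 h had -0.05, 0.0012 and -0.14 in WT and 0.12, -0.08 and -0.08 in KO, and at 24 h -0.28, 0.68 and 0.06 in WT and -0.0012, -0.36 and 0.31 in KO. The WT 24 h arrays alone thus ran from near the lower end of its range to the top.

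Krtap4-13 had 0.26, -0.37 and -0.21 in WT and 0.02, 0.31 and 0.79 in KO at 0 h, the KO replicate 3 being its highest array. Its 6 h arrays held 0.15, -0.22 and -0.16 in WT and 0.03, -0.27 and 0.30 in KO, and its 24 h arrays -0.05, -0.21 and -0.07 in WT and 0.01, 0.02 and -0.01 in KO. It was below 0 in WT 24 h replicate 2, and without that array it had the largest SD of the members, 0.275 log2. Rows shared by Krtap4-13 and other genes, not analysed here, had SDs of 0.0502 and 0.0759 log2 over the 18 arrays. They stood at -0.02 and 0.14 in KO 0 h replicate 3. Krtap4-9 had 0.03, -0.11 and -0.33 in WT and 0.22, 0.33 and -0.19 in KO at 0 h. Its later values were -0.17, 0.05 and -0.02 in WT and -0.07, -0.10 and 0.58 in KO at 6 h, and -0.02, 0.02 and 0.03 in WT and 0.22, 0.41 and -0.24 in KO at 24 h. Its highest array was KO 6 h replicate 3, and the genotypes overlapped at 0, 6 and 24 h.

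Krtap19-4, of the high glycine-tyrosine type, had -0.17, -0.34 and -0.34 in WT and 0.06, 0.30 and 0.19 in KO at 0 h. It had 0.05, -0.06 and -0.12 in WT and -0.03, 0.36 and 0.50 in KO at 6 h, and -0.15, 0.19 and -0.07 in WT and -0.27, 0.30 and 0.03 in KO at 24 h. Its unstressed WT replicates 2 and 3 were the lowest arrays of the set, all unstressed KO arrays were above the WT ones, and its highest was KO 6 h replicate 3.

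Type II keratins varied less than type I, with a median SD of 0.124 log2 against 0.177. The widest was Krt81, a cortex keratin, with 0.01, 0.01 and 0.01 in WT and -0.09, 0.0039 and -0.03 in KO at 0 h. At 6 h Krt81 had -0.02, -0.13 and -0.18 in WT and -0.0039, 0.50 and 0.44 in KO, and at 24 h 0.01, -0.12 and 0.03 in WT and -0.13, 0.37 and -0.22 in KO. The KO arrays of 6 h divided into 1 near 0 and 2 at 0.44 and 0.50, and Krt81 was below 0 in WT 24 h replicate 2, where Krt82, Krt83 and Krt84 stood at 0.23, 0.29 and 0.24.

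KAP classes were assigned here from family names and not checked against composition, so the figures by class depend on that assignment. By class, the median SD over the 18 arrays was 0.0747 log2 for the 11 high sulfur KAPs, 0.110 for the 20 ultra-high sulfur KAPs, 0.0709 for the 15 high glycine-tyrosine KAPs and 0.0934 for the 5 KAPs not assigned to a class. Every class held a member or members above 0.2 log2 in WT 24 h replicate 2, as did 7.21% of all genes. They were 3 of 9 type I and 3 of 5 type II keratins. Among the KAPs they were 3 of 11 high sulfur, 4 of 20 ultra-high sulfur, 3 of 15 high glycine-tyrosine and 1 of 5 unassigned. Only 1 of the 5 type II keratins, Krt82, was highest in that array. No type II keratin or unassigned KAP stood there above every other array by over 0.2 log2. In 22 of the 65 members, all 18 values lay within 0.2 log2 of 0, among them Krtap6-1, Krtap6-2, Krtap6-3 and Krtap13. The share over all genes was not counted. A row shared by Krtap6-1 and other genes was not analysed. That row stood at 0.866 in WT 24 h replicate 2 and at 0.839 in KO 0 h replicate 2. Krtap31-1, the widest of the unassigned KAPs, stood at -0.03, 0.14 and 0.05 in WT and -0.01, 0.003 and -0.003 in KO at 0 h. Its 6 h values were 0.16, 0.06 and -0.09 in WT and -0.16, -0.07 and 0.05 in KO, and its 24 h values 0.08, -0.01 and 0.28 in WT and -0.17, 0.15 and -0.12 in KO. The genotypes overlapped at every time.

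**Figure D3:**
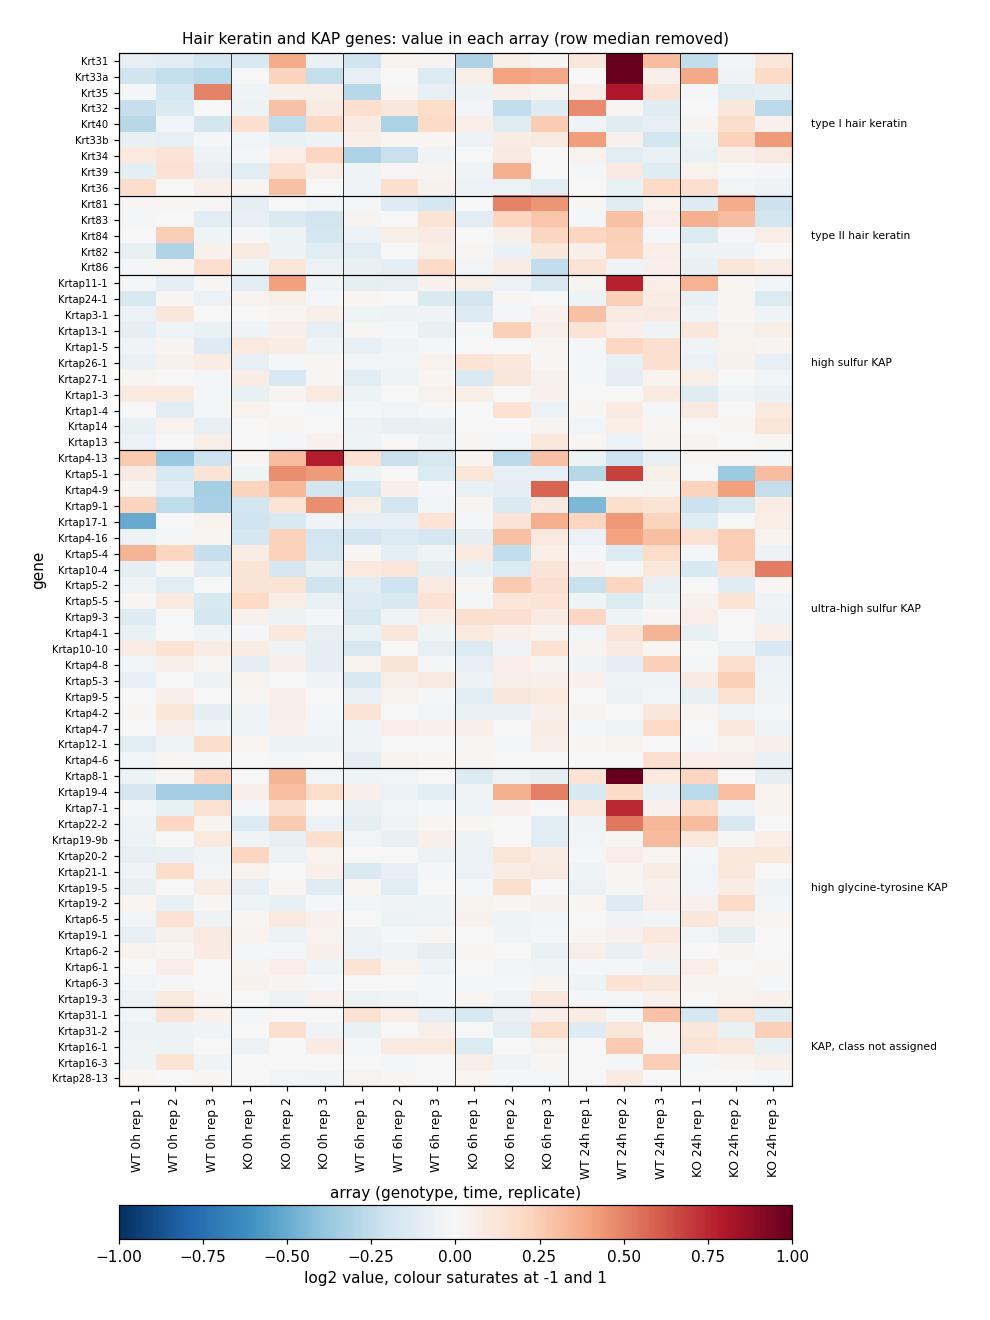
Log2 values (row median removed) of the 65 members in rows, grouped by class, and the 18 arrays in columns; colour runs from blue (-1) to red (1) and is saturated beyond. The WT 24 h replicate 2 column holds the darkest cells, for Krt31, Krt33a and Krtap8-1, and most of the other cells are pale.

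Genes of other follicle layers stood high in the same array. Beside the members, the genes with the largest gaps between WT 24 h replicate 2 and the next array were Tchh (1.85 log2), Krt28 (1.59), S100a3 (1.25), Krt25 (1.23), Krt73 (0.89), Krt27 (0.78), Krt71 (0.73) and Krt72 (0.68). Of these, S100a3 encodes a calcium-binding protein of the hair cuticle, Tchh the granule protein of the inner root sheath, and the keratins are those of the inner root sheath. Of the 12 genes of the whole table with the largest such gaps, 4 were members, 7 came from the list of 13 inner root sheath and companion layer genes, and the last was S100a3. Krt87, a hair keratin outside the chosen symbols, stood at 0.64 there with a gap of 0.47.

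Follicle lists were read in that array by their medians, which are descriptions. The inner root sheath list had a median of 0.93 log2, against -0.108 to 0.297 in the other 17 arrays, with 8 of its 13 genes highest there. The list of shaft regulators and matrix genes had 0.175, against -0.121 to 0.0812, with 8 of 19 genes highest there, among them Lef1 at 0.54, Hoxc13 at 0.38 and Dsg4 at 0.33. Foxn1, a transcription factor that drives hair keratin genes, was at 0.06 and did not stand out. Medians were 0.400 for melanocyte genes (other arrays -0.141 to 0.354), 0.397 for sebaceous gland genes (-0.388 to 0.161) and 0.197 for dermal fibroblast genes (-0.164 to 0.0548). The outer root sheath and bulge list had 0.155 (other arrays -0.284 to 0.154), the dermal papilla list 0.111 (-0.0753 to 0.198), the cell cycle list 0.0262 (-0.258 to 0.711) and the list of epidermal genes 0.00555 (-0.315 to 0.263). The part of these other cells, or of the hair cycle stage of the animal, in the members' values was not tested.

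Krt71, a keratin of the inner root sheath, had further high arrays, and other sheath keratins were raised in some of them. Krt71 stood at 1.22, -0.27 and 1.45 in WT at 0 h and 1.45, 0.78 and -0.20 in KO at 24 h. In those 6 arrays Krt31 reached at most 0.12. Krtap8-1 stood at 0.21 in both WT 0 h replicate 3 and KO 24 h replicate 1. Only WT 24 h replicate 2 and KO 0 h replicate 2 were higher for that gene. Other members were also raised in some of the 6 arrays. Krt35 stood at 0.50 in WT 0 h replicate 3. In KO 24 h replicate 1, Krt33a stood at 0.38, Krtap11-1 at 0.35 and Krtap7-1 at 0.19. Krt83 stood at 0.35 and 0.31 in KO 24 h replicates 1 and 2. In WT 0 h replicates 1 and 3, Krt28 stood at 0.78 and 0.53 and Krt25 at 0.82 and 0.66. Krt73 stood there at 0.48 and 0.80, and Krt72 at only -0.06 and 0.21. The cuticle gene S100a3 stood at 0.96 in KO 24 h replicate 1.

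**Figure D4:**
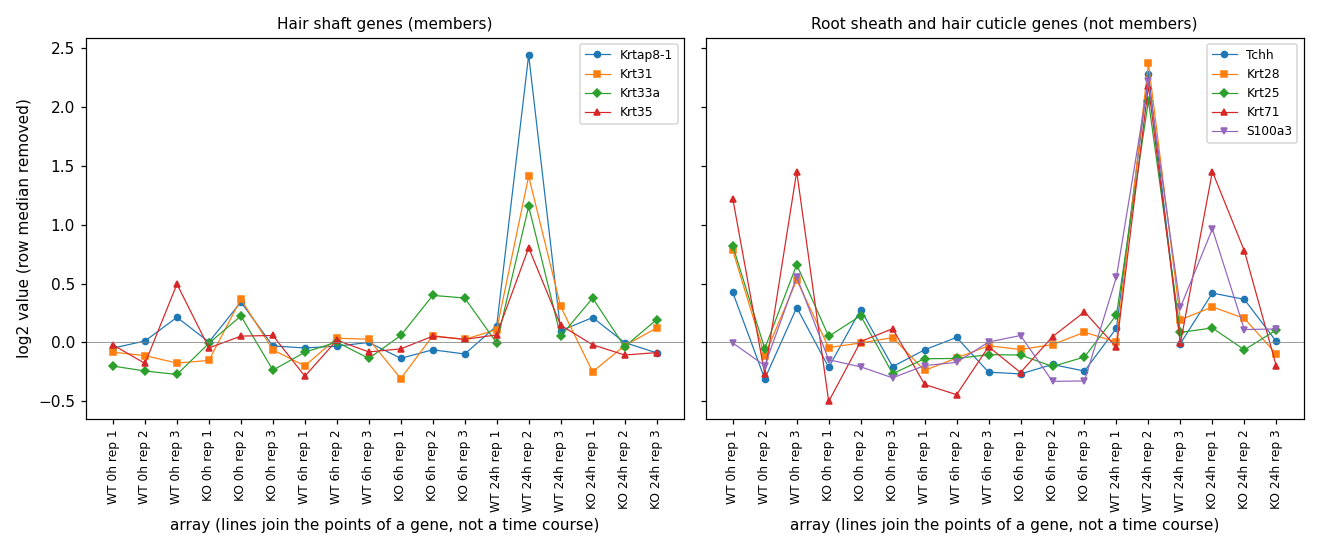
Log2 values (row median removed) of 4 members (left) and of 4 inner root sheath genes with the hair cuticle gene S100a3 (right) across the 18 arrays; the lines join the points of 1 gene and are no time course. Both panels peak in WT 24 h replicate 2, and Krt71 is also above 1 log2 in 2 WT arrays at 0 h and 1 KO array at 24 h.

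Tests between groups used limma (1 fit over all 18 arrays, Benjamini-Hochberg adjustment over the 23521 rows with a single symbol), with 0.05 as the limit of the adjusted p. No member passed in any of the 9 comparisons. As a check of the labels, Ahr stood at 0.63, 0.16 and 0.07 in unstressed WT and at -0.13, 0.04 and -0.02 in unstressed KO. Its 6 h values were 0.06, 0.58 and 0.64 in WT against -0.63, -0.65 and -0.77 in KO, and those of 24 h -0.01, 0.12 and 0.01 against -0.59, -0.74 and -0.64. The KO arrays lay below the WT arrays at each time, with limma differences of -0.32, -1.11 and -0.70 log2 (adjusted p = 0.556, 0.00549 and 0.220). Only the 6 h difference passed. The unstressed KO arrays stood above all other KO arrays and overlapped the WT arrays of 24 h, so the check is weakest at 0 h. The position of the Ahr probes relative to the deleted part was not part of the files, so the Ahr values check the labels only in so far as the probes cover it. Medians of the arrays over the tested rows ran from -0.0167 to 0.00906 log2.

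Without stress, the comparison of genotypes asks whether loss of AhR alone goes with another level of hair shaft genes. At 0 h, 0 of 65 members passed (0.0978% of all rows did), 2 had an unadjusted p under 0.05 (8.48% of rows), and the 2 genotypes did not overlap in 4 members (13.7% of rows). Krtap19-4 was 0.18 ± 0.12 log2 in KO and -0.28 ± 0.10 in WT (SD, n = 3), with a limma difference of 0.46 log2 (SE 0.14, adjusted p = 0.323). Krtap4-13 differed by 0.48 log2 (SE 0.19, adjusted p = 0.486), and its groups overlapped. In the rows it shares with other genes, which were not tested, the values at 0 h were closer together. They ran from -0.03 to 0.14 in KO and from -0.09 to -0.01 in WT. The median difference of the 65 members was 0.0211 log2, against -0.00336 over all rows, and the members' median varied between arrays of a group with an SD of 0.0222.

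At 6 h after stripping, 0 of 65 members passed (2.18% of rows), 5 had an unadjusted p under 0.05 (15.8% of rows) and 11 did not overlap between genotypes (17.7% of rows). Krt81 was 0.31 ± 0.27 in KO and -0.11 ± 0.08 in WT (SD, n = 3) and differed by 0.42 log2 (SE 0.14, adjusted p = 0.127) by limma. Without KO 6 h replicate 1 it differed by 0.58 (adjusted p = 0.0236), and with limma's array weights by 0.50 (adjusted p = 0.0430), and these are the settings under which a member passed in this comparison. That replicate was the only KO 6 h array with a label number, described below, from 3000. With the class of that number as a block in limma, Krt81 had an adjusted p of 0.125. Krt34 differed by 0.22 log2 (SE 0.08, adjusted p = 0.176) and Krt32, a cuticle keratin, by -0.29 log2 (SE 0.14, adjusted p = 0.316). In 48 of 65 members KO was above WT, against 52.5% of rows, and the members' median difference was 0.0427 log2 against 0.00651 over all rows.

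At 24 h, 0 of 65 members passed (0.017% of rows), 4 had an unadjusted p under 0.05 (6.71% of rows) and 12 did not overlap between genotypes (12.9% of rows). Krtap8-1 was 0.04 ± 0.15 in KO and 0.89 ± 1.34 in WT (SD, n = 3), and its limma difference of -0.85 log2 (SE 0.41, adjusted p = 0.752) became -0.08 (SE 0.11, adjusted p = 0.998) without WT 24 h replicate 2. Krt31 differed by -0.66 log2 (SE 0.25, adjusted p = 0.65), and by -0.26 (SE 0.15, adjusted p = 0.985) without that array. Krt35 differed by -0.41 log2 (SE 0.17, adjusted p = 0.698), and by -0.18 (SE 0.14, adjusted p = 0.993) without it. These 3 differences, the most negative of the comparison, thus shrank when 1 array was left out. That array is the highest of each of the 3 genes, so the direction of the shift was fixed in advance and only its size is a description. In 11 of 65 members the sign of the difference changed without it, among them Krt33a from -0.22 to 0.15, Krtap11-1 from -0.17 to 0.07 and Krtap5-1 from -0.17 to 0.09. Krtap3-1, a high sulfur KAP with the smallest p of the comparison, stood at 0.29, 0.09 and 0.09 in WT and -0.03, 0.01 and -0.03 in KO. Its difference of -0.17 log2 (SE 0.06, adjusted p = 0.647) was -0.21 (SE 0.07, adjusted p = 0.96) without that array, the genotypes not overlapping. Krtap17-1, an ultra-high sulfur KAP, had 0.21, 0.44 and 0.22 in WT and -0.12, -0.01 and 0.06 in KO, and differed by -0.31 log2 (SE 0.13, adjusted p = 0.688). The median difference of the members was -0.0118 log2, against -0.0006 over all rows.

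**Figure D5:**
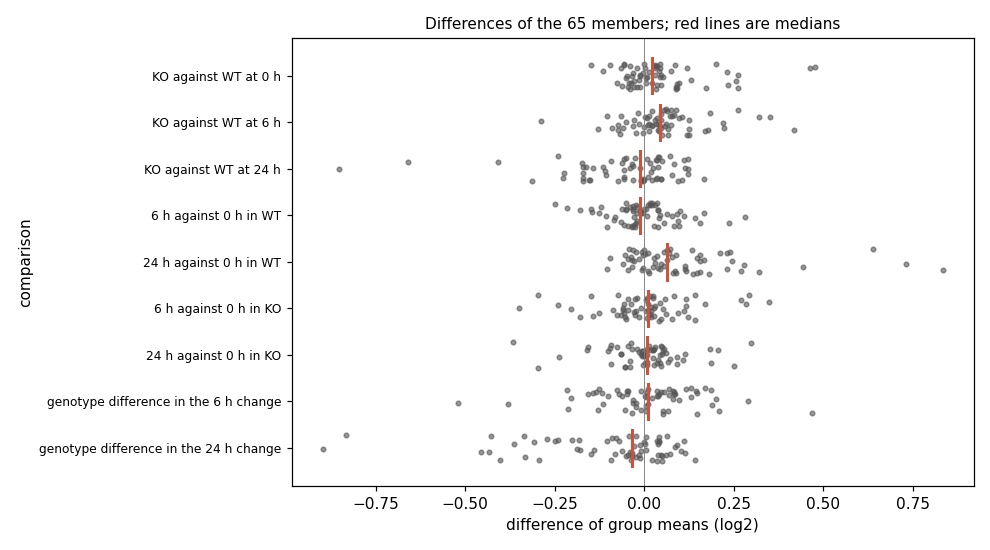
Each grey point is the difference of group means (log2) of 1 of the 65 members, in each of the 9 comparisons; red lines are medians. The medians lie between -0.0340 and 0.0635, and the far points at 24 h are Krtap8-1, Krt31 and others that are high in 1 WT array.

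In WT skin after stripping, members were compared with unstressed WT skin. At 6 h, 0 of 65 members passed (0% of rows did) and 3 had an unadjusted p under 0.05 (4.62% of rows), the smallest being that of Krt34, -0.25 log2 (SE 0.08, adjusted p = 1) by limma. At 24 h, 0 of 65 passed (0.0298% of rows), 7 had an unadjusted p under 0.05 (12.5% of rows) and 8 did not overlap with 0 h (17.7% of rows). In 46 of 65 members the 24 h mean was above the 0 h mean, against 54.9% of rows, with a median difference of 0.0635 log2 against 0.0117.

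Krt31 was 0.61 ± 0.70 at 24 h and -0.12 ± 0.05 at 0 h in WT (SD, n = 3), a limma difference of 0.73 log2 (SE 0.25, adjusted p = 0.219), or 0.33 (SE 0.15, adjusted p = 0.399) without WT 24 h replicate 2. Krt33a differed by 0.64 log2 (SE 0.23, adjusted p = 0.248), or 0.26 (SE 0.14, adjusted p = 0.461) without that array. For Krtap8-1 the difference was 0.83 log2 (SE 0.41, adjusted p = 0.434), or 0.06 (SE 0.11, adjusted p = 0.887) without it. Krtap17-1, with the smallest p, had -0.50, 0.01 and 0.04 at 0 h and 3 higher values at 24 h, and differed by 0.44 log2 (SE 0.13, adjusted p = 0.161), or 0.37 (SE 0.14, adjusted p = 0.3) without that array. The differences of Krt31, Krt33a and Krtap8-1 were thus smaller by over 0.3 log2 without the single array, and that of Krtap17-1 by less than 0.1. Each of these genes is highest in that array, so a smaller difference was fixed in advance and only the sizes are descriptions. Without it the sign changed in 12 of 65 members, Krtap5-1 going from 0.13 to -0.13. Leaving out WT 0 h replicate 1, its lowest array, gave Krtap17-1 a difference of 0.27 (adjusted p = 0.41).

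In KO skin, 1172 rows passed at 6 h and 2249 at 24 h after stripping, and no member was among them. At 6 h, 0 of 65 members passed (4.98% of rows) and 2 had an unadjusted p under 0.05 (20.7% of rows). Krt81 differed by 0.35 log2 (SE 0.14, adjusted p = 0.158), and without KO 6 h replicate 1 by 0.51 (adjusted p = 0.0369). At 24 h, 0 of 65 passed (9.56% of rows), 1 had an unadjusted p under 0.05 (22.9% of rows) and 1 did not overlap with 0 h (29.5% of rows). Krt83, a cortex keratin, stood at -0.08, -0.15 and -0.19 in the unstressed KO arrays and at 0.35, 0.31 and -0.18 in those of 24 h, and differed by 0.30 log2 (SE 0.13, adjusted p = 0.172). Leaving out KO 24 h replicate 3 gave 0.47 (adjusted p = 0.0225). The median difference of the members was 0.0106 log2 at 6 h and 0.00717 at 24 h, against 0.0181 and 0.0245 over all rows, and the median size of a difference was 0.0459 log2 at 24 h for members against 0.0989 for all rows.

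Whether the genotypes differed in their response was tested as an interaction. For the 6 h change, 0 of 65 members passed (0.731% of rows) and 2 had an unadjusted p under 0.05 (13.1% of rows), Krt32 with -0.52 log2 (SE 0.19, adjusted p = 0.23) and Krt81 with 0.47 log2 (SE 0.19, adjusted p = 0.294). For the 24 h change, 0 of 65 passed (0% of rows) and 3 had an unadjusted p under 0.05 (9.2% of rows), with Krt31 at -0.83 log2 (SE 0.35, adjusted p = 0.482). Without WT 24 h replicate 2 the Krt31 value was -0.43 (SE 0.21, adjusted p = 0.66). The comparisons share arrays, so their values are not independent of each other.

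Among the genes around the shaft, 2 of the 19 shaft regulators and matrix genes were lower in KO than in WT at 6 h by limma: Dlx3, a homeobox regulator of shaft and epidermis, with -0.43 log2 (adjusted p = 0.0343), and Ovol1, a zinc finger regulator, with -0.94 (adjusted p = 0.0378). Neither passed without KO 6 h replicate 2 or 3 or WT 6 h replicate 2 or 3, each left out alone (adjusted p from 0.0848 to 0.177). Dlx3 and Gata3 were lower in KO at 6 h than at 0 h, and Gata3 also at 24 h, and these calls too were lost when some of the KO arrays were left out singly. Dlx3, Gata3 and Ovol1 are active in interfollicular epidermis too. None of the 13 inner root sheath genes passed in any of the 9 comparisons. At 6 h, KO was lower in 3 of 15 outer root sheath and bulge genes, 1 of 11 dermal papilla genes and 1 of 12 epidermal genes, and higher in 1 of 15 cell cycle genes, while no melanocyte, fibroblast or sebaceous gland gene passed; over all rows 2.18% did in either direction. In KO skin at 6 h against 0 h, 6 of 15 outer root sheath and bulge genes were lower and 1 higher (4.98% of all rows passed). At 24 h against 0 h in KO, 8 of 15 cell cycle genes were higher, and of 12 epidermal genes 5 were lower and 2 higher (9.56% of all rows passed).

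The label of each array includes a number with a meaning not given in the sources used here. All 24 h arrays have numbers from 3000, while the 0 h and 6 h groups hold both kinds. The members' median difference between KO and WT at 0 h was -0.0267 log2 among numbers below 3000 and 0.0584 among those from 3000. Each of these splits sets 1 array of a genotype against 2 of the other, and at 6 h the arrays from 3000 are 1 against 1, so the values carry no error and are descriptions. At 6 h it was 0.0518 and 0.0417. For 6 h against 0 h it was -0.0086 and -0.0130 in WT, and 0.0173 and -0.0262 in KO. For 24 h against 0 h, which only arrays from 3000 allow, it was 0.0899 in WT and 0.0089 in KO. The WT value rests on 1 unstressed array, WT 0 h replicate 1, and the KO value on 2.

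The genes most like the members' median over the 18 arrays were, by Pearson's r, Lypd9, Dock3 and Sult2a4, and the 15 most alike had r from 0.736 to 0.808. None belongs to the 9 follicle, skin and cell cycle lists. This is a description over arrays that share their processing, and r over these genes was 0.525 to 0.739 without KO 6 h replicate 3 and WT 24 h replicate 3, the 2 arrays in which the members' median lay farthest from its middle value over the 18. Since the members' median covers only -0.0464 to 0.0528 log2, it does not carry the single-array pattern of Krtap8-1, Krt31 and Krt33a.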

How the data were processed

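Total RNA of 18 epidermal sheets was labelled with biotin and read on Affymetrix arrays, per the labels' protocols. Groups came from the sample titles, and nothing in them says that replicates came from separate animals beyond the design's mention of 3 littermates per group, so p-values measure the spread between these samples. The authors deposited 1 table of log2 values (33793 rows, -6.40 to 4.30), in which every row's median is 0 within 1e-06; the log base is taken from the range of the values, and a natural log would scale all differences alike. The steps of background correction, summarisation and normalization: not given in the sources used here. Since levels were removed, no filter on dim rows was possible and all 65 members were tested. The number of arrays limits the precision.

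Gene symbols came from the platform's annotation, which gave 1 symbol to 23521 rows, several to 1814 and none to 8458. limma 3.58.1 in R 4.3.3 fitted 1 mean per group over all arrays (12 residual and 2.76 prior degrees of freedom), with moderated 2-sided tests, and was tested on simulated data. No exact permutation test was run, as 0.1 is the smallest 2-sided p that 3 against 3 arrays allow. KAP classes were assigned here from family names, since no protein table was used, and were not checked against composition. Krtap10-4, Krtap10-10 and Krtap12-1 were counted as ultra-high sulfur and Krtap16-1 was left unassigned, which another scheme may place otherwise. Values in every array are given for the 4 keratins and 6 KAP genes with the largest SD over arrays and the widest gene of each class; other members were named by smallest p in a comparison or, after their values were seen, as neighbours or relatives of these. The 9 lists hold 124 genes, of which 116 were measured. The members and lists were chosen with earlier results of these data known. Promoters came from RefSeq (GRCm38.p6), and the 5 shown were picked after the values were seen. Alternatives were a second quantile normalization, array medians shifted to 0, all rows, the trend and robust settings of limma, array weights, only the compared groups in the fit, a replicate block, the label number as a block or split, the mean of a gene's rows, and each replicate left out.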

Additional observations from a re-analysis of the deposited data

Results flagged for a closer look

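A row of the table that names 2 symbols, 1 of them a hair shaft gene, and that entered no comparison stood at 1.56 log2 in WT 24 h replicate 2. Its other 17 arrays lay between -0.117 and 0.166, and the unstressed WT arrays reached at most 0.0263. It is listed because it is a signal outside the rows that were analysed, and it cannot be given to a single gene. Among the other 9 such shared rows, 1 includes Krtap6-1. It stood at 0.866 in that array and at 0.839 in the unstressed KO 0 h replicate 2. Another, of Krtap3-2 and Krtap3-3, had its lowest value of the 18 arrays in WT 24 h replicate 2, -0.681, next to -0.671 in KO 0 h replicate 3. A further row of the same 2 genes had its highest value in WT 24 h replicate 2, 0.167, against at most 0.153 in the other 17 arrays.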

How the results depend on the processing

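The count of members past the threshold stayed at 0 in 143 of 147 alternatives over the 9 comparisons. It was 1 with array weights and without KO 6 h replicate 1 for KO against WT at 6 h (range without each replicate 0 to 1), without KO 6 h replicate 1 for 6 h against 0 h in KO (0 to 1), and without KO 24 h replicate 3 for 24 h against 0 h in KO (0 to 1). The members' median difference moved by over the spread between arrays in 16 of 161 alternatives: for KO against WT at 0 h to -0.0267 and 0.0584 within label numbers below and from 3000; for 24 h against 0 h in WT to 0.0899 from 3000; for 6 h against 0 h in KO to -0.0147 with the number as a block and -0.0262 from 3000; for the genotype difference in the 6 h change to 0.0446 below and -0.0270 from 3000; and for that in the 24 h change to -0.0591 from 3000. With each replicate left out in turn, the medians ran from 0.0170 to 0.0565 for KO against WT at 6 h, -0.0465 to 0.00414 at 24 h, -0.0159 to 0.0272 for 6 h against 0 h in KO, -0.00159 to 0.0366 for the 6 h genotype difference and -0.0636 to -0.0103 for the 24 h one. The cause was not tested. For single genes, 5 of 498 alternatives of the 32 differences followed reversed the sign, none of them a called value: without WT 24 h replicate 2, KO against WT at 24 h turned positive for Krt33a (range without each replicate -0.426 to 0.154), Krtap11-1 (-0.305 to 0.0678) and Krtap5-1 (-0.386 to 0.0933), and 24 h against 0 h in WT negative for Krtap5-1 (-0.130 to 0.350); without KO 24 h replicate 2, KO against WT at 24 h gave 0.000806 for Krtap5-1. Dlx3, Ovol1, Gata3 or Ahr lost a call in 34, among them the call of Dlx3 for 6 h against 0 h in KO without any 1 of KO 0 h replicates 1 to 3 or KO 6 h replicates 2 and 3, that of Gata3 at 6 h without any 1 of KO 0 h replicates 1 to 3 or KO 6 h replicate 3, and at 24 h without KO 0 h replicate 2 or 3 or KO 24 h replicate 1 or 2; with the replicate block Gata3 at 6 h had an adjusted p of 0.0629. Ahr at 6 h lost its call with the compared groups alone. Members highest in WT 24 h replicate 2 numbered 16, and 13 to 18 under alternatives chosen after seeing the data. One of these alternatives left out Krtap8-1, Krt31 and Krt33a, which are all among the 16, so it gave 13 by construction.

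The values gave no sign that the replicate numbers pair the samples. Same-numbered KO and WT arrays had correlations of -0.458 to 0.251, and 3 of 18 arrays correlated best with their own number. These correlations are of deviations from means of 3 arrays, so they cannot exclude a pairing. With the replicate block, 0 members passed in each of the 9 comparisons, and all rows past the threshold numbered 8, 314 and 4 for KO against WT at 0, 6 and 24 h, against 23, 513 and 4 without it. Depth and signal over background cannot be read from centred values, so a dim gene with no change could not be told from one that was not detected.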
